A study of Mus musculus with 12 samples.

Results

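Integrins are the receptors by which cells hold on to the matrix around them, and laminins are the matrix proteins that many of those receptors hold. The genes described here are the integrin and laminin subunits measured by RNA sequencing in MOC2 cells, which derive from a squamous cell carcinoma of the mouse mouth. They were chosen by name from the deposited count table, as the protein-coding rows whose symbol is Itga with a subunit number or letter, Itgb1 to Itgb8, or Lama, Lamb or Lamc with a number. No measured value entered the rule. It gave 38 rows of the 55421 Ensembl genes, 27 for integrins and 11 for laminins, with 37 different symbols because Itgam is listed under 2 identifiers. Of the 38, 35 passed the filter on low counts and were tested among 18108 genes. The remaining 3, both Itgam rows and Itgad, had at most 12 counts in any library.

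An integrin is a pair of 1 alpha and 1 beta chain that spans the membrane and ties matrix outside the cell to actin or keratin filaments inside it. A laminin is a cross-shaped trimer of an alpha, a beta and a gamma chain, and it forms the sheet of the basement membrane on which epithelia rest. In stratified epithelia the alpha 6 beta 4 pair anchors basal cells to a laminin with alpha 3 and beta 3 chains at hemidesmosomes, the alpha 3 beta 1 pair binds the same laminin, and squamous carcinomas are known for carrying this set.

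The cells came in a 2 by 2 design of 4 groups with 3 libraries each. MOC2-25 cells are labelled EV-proficient and MOC2-27 cells EV-deficient, where EV stands for extracellular vesicles, the membrane particles that cells shed. Each was taken as an untreated control, with DMSO as the treatment in its label, and after 600 nM paclitaxel for 48 h. Paclitaxel is a drug that stabilises microtubules, and it was used to make the cells senescent. All groups share the parent line and the growth medium. Each EV label stands on 1 derivative of the line, so vesicle release and anything else that differs between the derivatives cannot be told apart. The labels name no targeted gene, so the EV labels were not checked against one. The libraries of a group are numbered but are not stated to be separate cultures, and p-values below measure only the spread between these libraries.

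Library totals ran from 23263472 to 62955757 counts, and the 38 members took 0.853% to 1.04% of them. Mitochondrial genes took 0.550% to 0.720% of the counts in the EV-proficient controls and 0.846% to 0.907% after the drug, and 0.581% to 0.729% in the EV-deficient controls and 1.07% to 1.45% after the drug. The part of that share in the changes under paclitaxel was not tested. Levels are given as CPM, counts scaled to library size, in replicates 1, 2 and 3 in that order, and means are ± SD of 3 libraries. Levels of different members are compared only as CPM per kb of annotated exon. Changes are log2 fold changes from edgeR's quasi-likelihood test, called where the p-value adjusted over 18108 genes was under 0.05. The second principal component of all genes put the EV-proficient DMSO and EV-deficient paclitaxel libraries on one side and the other 2 groups on the opposite side. An exchange of the EV labels within 1 treatment would also give that order, and with no targeted gene to check them this was not tested. Drug effects within an EV label, EV-label differences and their interactions rest on the labels as given, while the drug effect averaged over both EV labels does not change with such an exchange. On that component EV-proficient paclitaxel replicate 3, which has the fewest counts, stood at -64.6, against -40.1 and -37.9 for the rest of its group. Of 12 squamous epithelial markers, Cdh1 (605 to 944 CPM in the group means), Epcam (407 to 816), Krt14 (80.0 to 681) and Krt17 (148 to 361) were present, while Krt5 had at most 8 and Trp63 at most 11 counts in any library.

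The alpha and beta classes of the integrins and of the laminins were each carried by a few genes in all 4 groups. Per kb of exon, Itga3 made up 73.0% ± 1.37 of the summed integrin alpha level in the EV-proficient DMSO libraries, and Itgb1 made up 84.9% ± 0.424 of the beta level. The laminin alpha level was shared about evenly there by Lama3 (50.6% ± 1.47) and Lama5 (49.4% ± 1.47). Among the beta chains, Lamb1 took 44.9% ± 1.07 and Lamb3 39.8% ± 1.16, with Lamb2 at 15.2% ± 0.109. These cells therefore held transcripts for the alpha 3 and beta 3 laminin chains and for the alpha 3 beta 1 and alpha 6 beta 4 receptors.

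**Figure D1:**
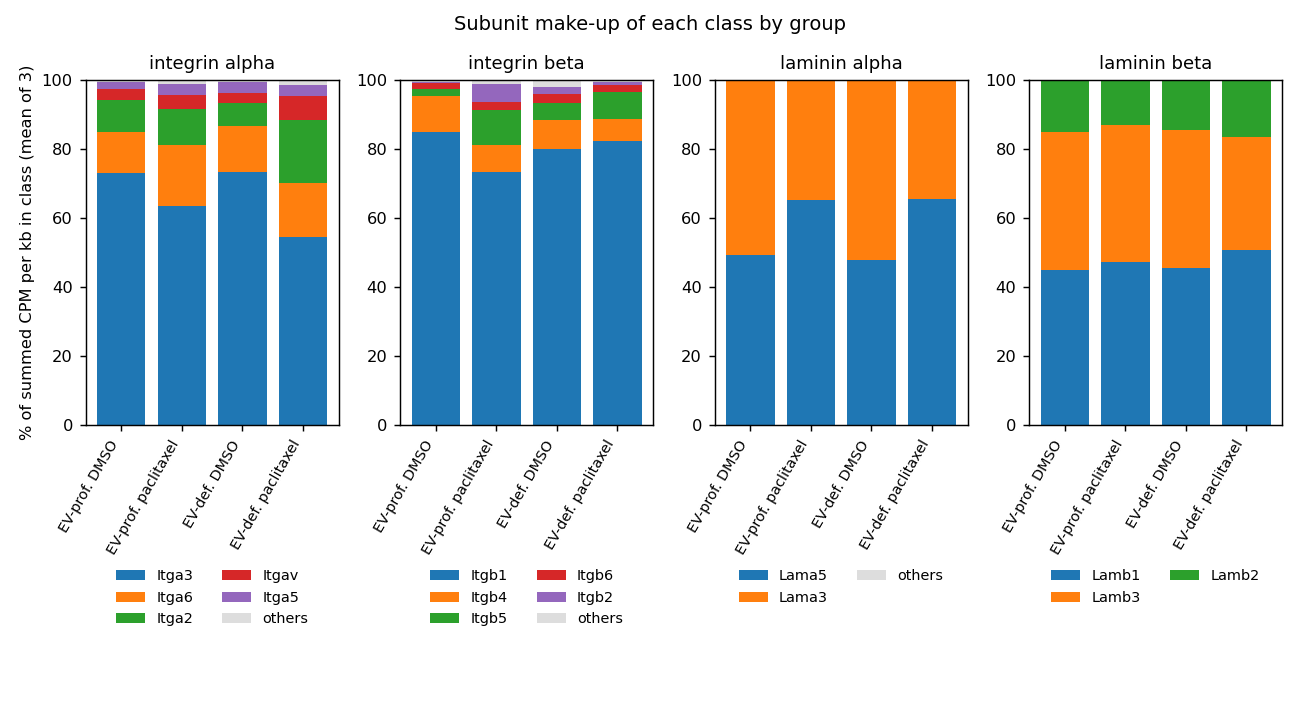
Make-up of the integrin and laminin alpha and beta classes. Bars give each gene's percent of the summed CPM per kb of its class (vertical axis, from 0 to 100) as the mean of 3 libraries in each of the 4 groups (horizontal axis). Itga3 and Itgb1 lead their classes in every group, while Lama5 passes Lama3 in both paclitaxel groups.

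The make-up differed between treatments, for some genes differently in the 2 EV labels. Under paclitaxel Itga3 made up 63.6% ± 2.32 of the alpha level in the EV-proficient and 54.4% ± 2.11 in the EV-deficient libraries. Itga2 went from 9.07% ± 0.694 to 10.3% ± 0.722 in the EV-proficient and from 6.63% ± 0.304 to 18.4% ± 1.08 in the EV-deficient libraries. Itgb1 went from 84.9% ± 0.424 to 73.2% ± 2.07 of the beta level in the former and from 80.0% ± 0.555 to 82.3% ± 1.54 in the latter. Itgb5 went from 2.09% ± 0.0454 to 10.1% ± 0.768 of the beta level in the EV-proficient libraries and from 4.65% ± 0.109 to 7.70% ± 0.704 in the EV-deficient ones. The per-kb ratio of Lama5 to Lama3 was 0.978 ± 0.0583 and 0.917 ± 0.0816 in the DMSO groups, and 1.87 ± 0.148 and 1.904 ± 0.204 in the paclitaxel groups. Shares and ratios are descriptions and were not tested. In bulk RNA, fewer cells of a kind and less RNA per cell cannot be told apart, which holds for every level below.

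Paclitaxel changed 23 of the 35 tested members in the EV-proficient libraries, 14 upward and 9 downward, where 58.2% of all tested genes passed (31.1% higher, 27.1% lower). In the EV-deficient libraries it changed 25, 12 upward and 13 downward, against 62.9% of all genes (32.4% higher, 30.5% lower). Averaged over both EV labels, 25 passed, 14 higher and 11 lower, against 68.4% (37.1% higher, 31.3% lower). The members' shares lay near the background in each comparison. Their median log2 change was 0.11, 0.06 and 0.19, beside 0.05, 0.07 and 0.07 over all genes. Without EV-proficient paclitaxel replicate 3 the first count was 20. Upper-quartile scaling, which moved the median of all genes in the EV-deficient comparison up by 0.18, gave 14 higher and 9 lower there.

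**Figure D2:**
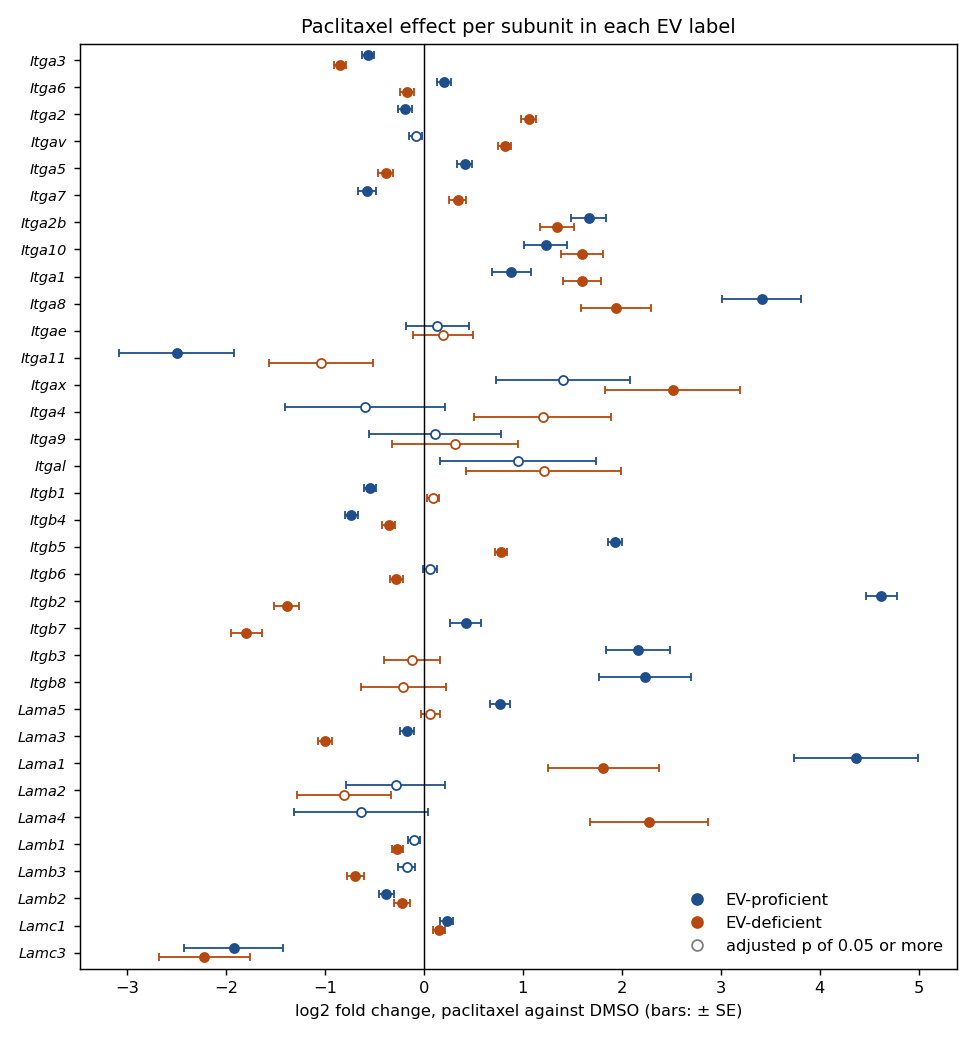
Paclitaxel effect on tested integrin and laminin subunits. The horizontal axis is the log2 fold change of paclitaxel against DMSO with bars of ± 1 SE, drawn separately for the EV-proficient and EV-deficient libraries, and hollow points have an adjusted p of 0.05 or more. Itgb2 lies at 4.62 in one EV label and -1.39 in the other.

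The alpha subunits that pair with beta 1 to bind laminin moved in different directions. Itga3, the main laminin-binding alpha chain of these cells (chr11:95044474-95076801, minus strand), stood at 2375, 2457 and 2305 CPM in the EV-proficient DMSO libraries and at 1538, 1745 and 1551 under paclitaxel. In the EV-deficient libraries it went from 2151, 2096 and 2123 to 1114, 1234 and 1200.1 CPM. Within each EV label every paclitaxel library lay below every DMSO library. The log2 fold change was -0.56 in the EV-proficient (SE 0.060, edgeR adjusted p = 5.3e-08) and -0.84 in the EV-deficient libraries (SE 0.060, edgeR adjusted p = 7.8e-11). The difference between these effects was called (-0.28 ± 0.084 SE, edgeR adjusted p = 0.0103), but not with upper-quartile scaling (-0.16) or without EV-proficient paclitaxel replicate 2 (-0.17) or EV-deficient paclitaxel replicate 1 (-0.21).

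Itga6, which pairs with beta 4 at hemidesmosomes and with beta 1 elsewhere, moved little. In the EV-proficient libraries it read 655, 608 and 582 CPM in controls and 742, 668 and 709 with the drug. In the EV-deficient libraries it read 622, 604 and 584 CPM in controls and 545, 591 and 473 with the drug. The EV-proficient drug-treated libraries all lay above their controls, while the EV-deficient groups overlapped. The paclitaxel effect was 0.20 in the EV-proficient libraries, a call lost in 5 of 12 fits with 1 library left out (0.11 without EV-proficient paclitaxel replicate 1). It was -0.17 in the EV-deficient ones, lost in 3 of 12 such fits (range -0.24 to -0.09), not called with median-of-ratios scaling, DESeq2, a filter of 1 CPM in 3 libraries or a fit of the compared groups alone, and turned to 0.01 by upper-quartile scaling. Itga7, a laminin-binding chain best known from muscle, went the opposite way at a far lower level per kb, from 23.6, 22.9 and 22.9 to 15.7, 16.1 and 14.6 CPM in the EV-proficient and from 19.5, 19.04 and 18.3 to 21.8, 23.4 and 26.9 CPM in the EV-deficient libraries. It fell in the former (-0.58 ± 0.090 SE, edgeR adjusted p = 1.1e-05) and rose in the latter (0.34 ± 0.088 SE, edgeR adjusted p = 0.00183), and the groups did not overlap in either.

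Itga2 and Itgav rose with paclitaxel in the EV-deficient libraries and not in the EV-proficient ones. Itga2, the alpha chain of a collagen receptor (chr13:114833081-114932100, minus strand), read 235, 251 and 232 CPM in EV-deficient DMSO and 489, 557 and 452 CPM in EV-deficient paclitaxel libraries. In EV-proficient libraries it read 409, 354 and 346 CPM without the drug and 341, 313 and 318 CPM with it. The EV-deficient groups lie far apart, with the lowest drug-treated library above every other library of the series. The rise there was 1.06 ± 0.076 SE (edgeR adjusted p = 8.4e-11), and the interaction, which is the drug effect in EV-deficient minus that in EV-proficient libraries, was 1.25 ± 0.11 SE (edgeR adjusted p = 5.5e-09). The EV-proficient change of -0.19 was not called without EV-proficient DMSO replicate 1 (-0.11) or with upper-quartile scaling (-0.13).

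Itgav (chr2:83724397-83806916, plus strand) encodes the alpha chain shared by the receptors for vitronectin and latent TGF-beta. It went from 157, 161 and 158 to 283, 276 and 278 CPM in the EV-deficient libraries and from 220.5, 202 and 182.7 to 201, 181 and 189 CPM in the EV-proficient ones. The first pair of groups does not overlap (log2 fold change 0.82 ± 0.065 SE, edgeR adjusted p = 4.7e-10). The second pair overlaps (log2 fold change -0.08 ± 0.065 SE, edgeR adjusted p = 0.284), and its change was called without EV-proficient paclitaxel replicate 1 (-0.17). The effects differed by 0.90 ± 0.092 SE (edgeR adjusted p = 8.6e-08). Itga5, the alpha chain of the fibronectin receptor, did the reverse. It read 55.2, 54.5 and 56.0 CPM in EV-proficient controls against 69.5, 81.0 and 69.6 CPM after the drug. In EV-deficient controls it read 79.6, 76.8 and 75.6 CPM, against 53.8, 66.8 and 57.1 CPM after the drug. It rose with the drug in the former (0.41, SE 0.078, edgeR adjusted p = 1.1e-04) and fell in the latter (-0.38, SE 0.077, edgeR adjusted p = 1.8e-04), an interaction of -0.80 ± 0.11 SE (edgeR adjusted p = 5.3e-06). Its groups did not overlap in either EV label.

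**Figure D3:**
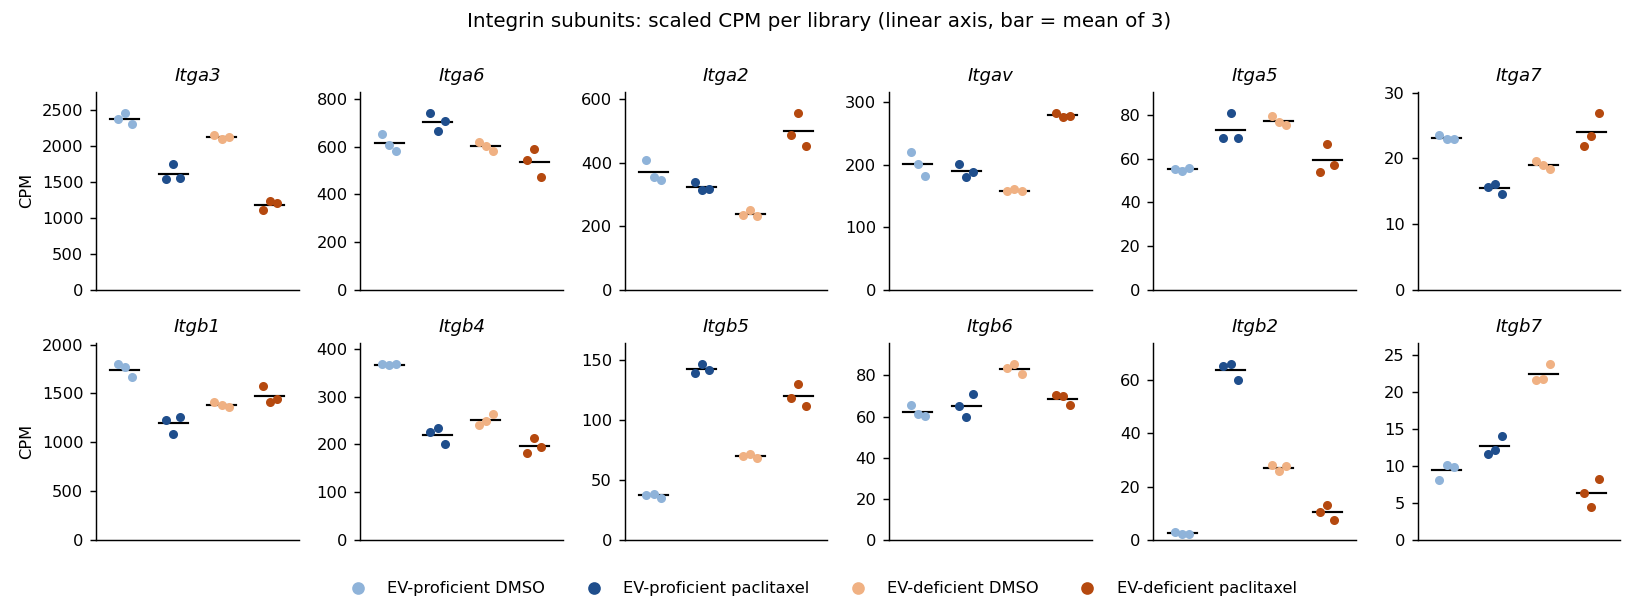
Levels of 12 integrin subunits by library. Each panel gives CPM on a linear axis that starts at 0, with a point for each of the 3 libraries of a group and a bar at their mean. The Itgb2 panel shows the EV-proficient paclitaxel libraries at 65.3, 66.0 and 59.8 CPM and the EV-proficient DMSO libraries at 3.14, 2.27 and 2.34.

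Of the beta subunits, Itgb1 is the common partner of most matrix-binding alpha chains, and it was the most abundant per kb in every group. EV-proficient controls held 1803, 1767 and 1665 CPM and their drug-treated counterparts 1232, 1091 and 1259.9. EV-deficient controls held 1409, 1382 and 1362 CPM and their counterparts 1572, 1416 and 1448. The drug lowered it in the EV-proficient libraries (-0.55 ± 0.062 SE, edgeR adjusted p = 1.4e-07). In the EV-deficient libraries the change was 0.09 ± 0.062 SE (edgeR adjusted p = 0.191), not called although all 3 drug-treated libraries lay above the controls, and it was called with upper-quartile scaling (0.28) and with a filter of 1 CPM in 3 libraries (0.16). The interaction was 0.64 ± 0.088 SE (edgeR adjusted p = 4.6e-06).

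Itgb4, whose long cytoplasmic tail links alpha 6 beta 4 to keratin, fell in both. Its levels were 368, 365 and 367 CPM in EV-proficient DMSO against 227, 235 and 200.3 under the drug, and 241, 249 and 263 CPM in EV-deficient DMSO against 182, 213 and 194. Neither pair of groups overlaps, and the EV-proficient DMSO libraries stand clear above the other 9. The log2 fold changes were -0.73 (SE 0.068, edgeR adjusted p = 7.2e-09) and -0.35 (SE 0.068, edgeR adjusted p = 1.0e-04), and they differed by 0.38 ± 0.096 SE (edgeR adjusted p = 0.00303). The per-kb ratio of Itga6 to Itgb4 went from 1.30 ± 0.0765 to 2.501 ± 0.273 in the EV-proficient and from 1.87 ± 0.143 to 2.13 ± 0.220 in the EV-deficient libraries. Exons of Itgb4 share 7.66% of their length with B230344G16Rik on the opposite strand, and whether the counts used strand is not given in the sources used here.

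Itgb5, a partner of alpha v (chr16:33829665-33949338, plus strand), rose in both. It read 38.0, 38.7 and 35.4 CPM in EV-proficient DMSO and 139, 147 and 142 CPM in EV-proficient paclitaxel libraries. In EV-deficient libraries it read 69.8, 71.8 and 68.6 CPM without the drug and 119, 130.2 and 112 CPM with it. All 6 drug-treated libraries lay above all 6 controls, and the EV-proficient controls were the lowest group. The rises were 3.81-fold (log2 fold change 1.93 ± 0.067 SE, edgeR adjusted p = 3.0e-15) and 1.72-fold (log2 fold change 0.78 ± 0.064 SE, edgeR adjusted p = 8.1e-10), with an interaction of -1.15 ± 0.092 SE (edgeR adjusted p = 1.9e-09). Itgb6, an epithelial partner of alpha v that activates TGF-beta, was at 65.7, 61.3 and 60.3 CPM in EV-proficient controls and at 65.2, 59.8 and 70.8 CPM after the drug. In EV-deficient controls it was at 83.8, 85.6 and 80.7 CPM, and after the drug at 70.4, 70.0 and 65.9 CPM. The EV-deficient controls were the highest, and the drug lowered Itgb6 there (-0.28) but not with upper-quartile scaling (-0.10). Itgav exceeded Itgb5 1.78 ± 0.118-fold per kb in the EV-proficient controls, and the ratio was 0.442 ± 0.0354 after paclitaxel, 0.749 ± 0.00961 in the EV-deficient controls and 0.771 ± 0.0616 after the drug.

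Itgb2 and Itgb7, the beta chains known from leukocytes, answered paclitaxel in opposite directions in the 2 EV labels. Itgb2 (chr10:77530252-77565708, plus strand) encodes the beta chain of the leukocyte integrins that bind ICAMs and complement fragments. It was at 3.14, 2.27 and 2.34 CPM in EV-proficient DMSO libraries and at 65.3, 66.0 and 59.8 CPM after paclitaxel. In the EV-deficient groups the order was the reverse, with 28.0, 25.8 and 27.8 CPM in controls and 10.6, 13.0 and 7.73 CPM after the drug. None of the 4 groups overlaps another. With the EV labels as given, Itgb2 rose 24.6-fold under paclitaxel in the EV-proficient libraries (log2 fold change 4.62 ± 0.16 SE, edgeR adjusted p = 2.0e-15) and fell 2.62-fold in the EV-deficient ones (log2 fold change -1.39 ± 0.13 SE, edgeR adjusted p = 5.7e-09). Averaged over both EV labels, which needs no EV label, the effect was 1.62 ± 0.10 SE (edgeR adjusted p = 5.7e-12). Its interaction of -6.01 ± 0.20 SE (edgeR adjusted p = 1.8e-15) was the largest in absolute size among the 35 members. It was -6.02 without EV-proficient paclitaxel replicate 3.

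The alpha partners of beta 2 had few counts. Itgal, which forms the lymphocyte function-associated antigen, had at most 21 counts in a library, Itgax at most 55, and Itgam and Itgad at most 12. Itgam shares 68.7% of its exon length with Gm49368 on the same strand, so reads could be split between them. Of 15 leukocyte markers, Cd3e had at most 2 counts and Tyrobp at most 1, and Ptprc, the pan-leukocyte phosphatase CD45, lay between 0.396 and 1.01 CPM in the group means. The 15 summed to 18.003 to 20.2 CPM in the EV-proficient controls and to 76.7 to 84.2 CPM after the drug, and to 32.6 to 33.4 CPM in the EV-deficient controls and 58.5 to 87.4 CPM after the drug, and 5 or 6 of the 15 were at or under 3 counts in each group. Csf1r, the macrophage colony-stimulating factor receptor, rose in the EV-proficient (3.63) and fell in the EV-deficient libraries (-1.22), at 0.944 ± 0.164, 11.6 ± 0.842, 12.4 ± 0.478 and 5.34 ± 1.54 CPM. Cd14, the monocyte endotoxin co-receptor, was at 10.2, 35.1, 10.1 and 34.5 CPM in the same order of groups, and Cd68 at 6.47, 30.1, 7.92 and 30.0 CPM. The part of these markers in the Itgb2 result was not tested.

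Itgb7 pairs with alpha 4 or alpha E in lymphocytes. In the EV-proficient libraries it was at 8.11, 10.2 and 9.92 CPM without and 11.7, 12.2 and 14.1 CPM with the drug. In the EV-deficient libraries it was at 21.6, 21.7 and 23.8 CPM without and 6.41, 4.48 and 8.32 CPM with it. The EV-deficient controls were far above the other groups, and their drug-treated counterparts overlapped the EV-proficient controls. The EV-deficient log2 fold change was -1.79 ± 0.16 SE (edgeR adjusted p = 1.6e-09), and the interaction was -2.22 ± 0.22 SE (edgeR adjusted p = 5.4e-08). The EV-proficient rise of 0.42 was lost in 5 of 12 fits with 1 library left out (range 0.31 to 0.49).

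Itgb3 and Itgb8, the remaining partners of alpha v, stayed under 3 CPM in every group mean. Itgb3, the beta chain of the platelet and osteoclast receptor, had means of 0.541 ± 0.0497, 2.41 ± 0.169, 2.22 ± 0.521 and 2.06 ± 1.01 CPM in EV-proficient controls and drug-treated libraries and then EV-deficient controls and drug-treated libraries. It rose with the drug in the EV-proficient libraries (2.16 ± 0.33 SE, edgeR adjusted p = 7.2e-06) and was not called in the EV-deficient ones (-0.12, from -0.56 to 0.13 with 1 library left out, the extremes without EV-deficient paclitaxel replicates 2 and 1), with an interaction of -2.28 ± 0.43 SE (edgeR adjusted p = 2.1e-04). Itgb8 rose in the EV-proficient libraries by 2.23, from 0.262 ± 0.133 to 1.27 ± 0.367 CPM, and its interaction was -2.44.

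Of the remaining 10 tested alpha chains, 5 rose and 1 fell on average under the drug, against 37.1% higher and 31.3% lower over all genes. Itga2b, the platelet alpha chain, went from 2.31 ± 0.432 to 7.34 ± 0.507 CPM in EV-proficient and from 2.36 ± 0.236 to 6.001 ± 0.885 CPM in EV-deficient libraries, an average rise of 1.51 ± 0.12 SE (edgeR adjusted p = 4.6e-10). The collagen-binding chains Itga1 and Itga10 rose by 1.24 and 1.41 on average, from means under 2 CPM in both control groups, though Itga10 shares 33.5% of its exon length with Gm42957 on the same strand. Itga8, whose ligand is nephronectin, rose from 0.255 ± 0.130 to 2.72 ± 0.902 CPM in the EV-proficient and from 0.480 ± 0.150 to 1.87 ± 0.460 CPM in the EV-deficient libraries. Itga11, a fibroblast collagen receptor chain, fell by 1.77 on the log2 scale on average, with -2.50 in the EV-proficient libraries and -1.04, not called, in the EV-deficient ones. The EV-deficient value ran from -1.65 to -0.65 with 1 library left out. It was called without EV-deficient DMSO replicate 2 or EV-deficient paclitaxel replicate 2. Itgax rose by 1.96 on average, with no call in the EV-proficient libraries (1.41), from at most 10 counts in any control library. Itgae, Itga4, Itga9 and Itgal were not called for the drug in either EV label.

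The laminin alpha chains parted under paclitaxel. Lama5, the alpha chain of most adult epithelial basement membranes (chr2:180176373-180225859, minus strand), was at 762, 666 and 709 CPM in EV-proficient DMSO and 1217, 1335 and 1088 CPM in EV-proficient paclitaxel libraries. In EV-deficient libraries it was at 769, 830.3 and 865 CPM without the drug and 706, 1019 and 852 CPM with it. The first pair does not overlap and the second does. The rise was 0.77 ± 0.098 SE (edgeR adjusted p = 6.8e-07) in the EV-proficient libraries, the change 0.06 ± 0.097 SE (edgeR adjusted p = 0.581) in the EV-deficient ones, called with upper-quartile scaling (0.25) and from -0.075 to 0.18 with 1 library left out (the extremes without EV-deficient paclitaxel replicates 2 and 1), and the interaction -0.70 ± 0.14 SE (edgeR adjusted p = 2.7e-04).

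Lama3, the alpha chain of the hemidesmosomal laminin, went from 874, 844 and 822 to 399, 472 and 401 CPM in the EV-deficient and from 750.3, 674 and 641 to 639, 616 and 576 CPM in the EV-proficient libraries. The EV-deficient drug-treated libraries were the lowest 3 of the 12, and the EV-deficient controls the highest 3. The log2 fold change there was -0.998 ± 0.072 SE (edgeR adjusted p = 8.9e-11), with an interaction of -0.82 ± 0.10 SE (edgeR adjusted p = 1.0e-06). The EV-proficient change of -0.17 was lost in 6 of 12 fits with 1 library left out (range -0.25 to -0.11) and with upper-quartile scaling (-0.11). Lama1, an embryonic chain, rose from 0.101 ± 0.127 to 2.15 ± 0.252 CPM in the EV-proficient libraries, where the controls held 0 to 10 counts, and from 0.188 ± 0.0913 to 0.686 ± 0.387 CPM in the EV-deficient ones, a call lost without EV-deficient paclitaxel replicate 2 (1.28, against 1.81). Lama4, a vascular chain, stayed under 0.6 CPM in every group mean and was called for the drug in the EV-deficient libraries (2.27 ± 0.60 SE, edgeR adjusted p = 0.00232) but not in the EV-proficient ones (-0.63). Lama2 was called in none of the 6 comparisons.

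**Figure D4:**
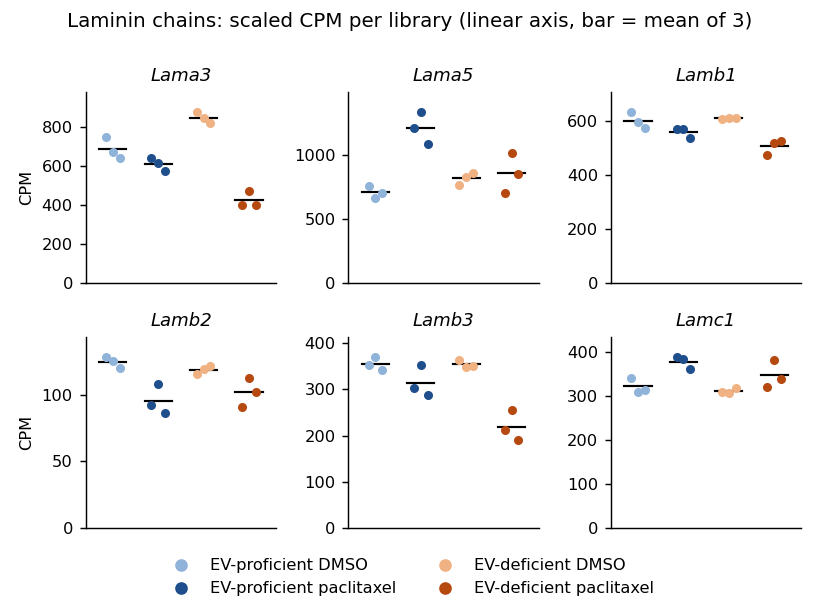
Levels of 6 laminin subunits above 10 CPM, by library. Each panel gives CPM on a linear axis from 0, with points for the 3 libraries of each group and a bar at the mean. Lama3, Lamb1 and Lamb3 have their lowest group in EV-deficient paclitaxel.

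Lamb3, the beta chain of the hemidesmosomal laminin, fell in the EV-deficient libraries, as Lama3 did. It went from 364, 348 and 351 CPM to 212, 254 and 190.1 CPM there. It read 352, 369.6 and 342 CPM in EV-proficient controls and 303, 353 and 287 CPM after the drug. The EV-proficient groups overlap and the EV-deficient ones do not. The EV-proficient change was -0.17 ± 0.085 SE (edgeR adjusted p = 0.0885), called in 6 of 20 alternatives (range with 1 library left out -0.32 to -0.14). Its EV-deficient log2 fold change was -0.69 ± 0.086 SE (edgeR adjusted p = 3.4e-07), and the interaction was -0.52 ± 0.12 SE (edgeR adjusted p = 0.00138). The epithelial keratin Krt14 also fell in the EV-deficient libraries (-3.09 ± 0.071 SE, edgeR adjusted p = 3.3e-18), from 681 ± 44.0 to 80.0 ± 2.56 CPM, and stood at 191 ± 13.1 and 191 ± 11.8 CPM in the EV-proficient groups. Of 9 tested squamous markers, 2 were higher and 6 lower after the drug in the EV-deficient libraries, against 32.4% and 30.5% of all genes. In the EV-proficient libraries 4 were higher and 3 lower, against 31.1% and 27.1%. The 12 squamous markers summed to 1947 to 2074 CPM in the EV-proficient controls and 1999 to 2094 CPM after the drug, and to 2755 to 2956 CPM in the EV-deficient controls and 1664 to 1858 CPM after the drug. Their part in the laminin result was not tested.

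Other laminin chains are more broadly expressed in the body. Lamc1, the common gamma chain, was at 341, 309 and 314 CPM in EV-proficient controls and 388, 384 and 361 CPM after the drug. In EV-deficient controls it was at 309.8, 307 and 319 CPM, and after the drug at 321, 382 and 339 CPM. All 6 drug-treated libraries lay above the controls of their EV label. It rose by 0.23 in the former, a call lost without EV-proficient paclitaxel replicate 1 or replicate 2 (lowest value 0.16), and by 0.15 in the latter, lost in 9 of 12 fits with 1 library left out (range 0.08 to 0.19). Lamb1, the common beta chain, was at 606, 609 and 610.2 CPM in EV-deficient controls and 475, 516 and 525 CPM after the drug. EV-proficient libraries held 630.2, 595 and 574 CPM without and 571, 570.4 and 536 CPM with the drug. It fell in the EV-deficient libraries (-0.27), though not with upper-quartile scaling (-0.08). Lamb2, a beta chain of mature basement membranes, went from 128, 125 and 120.1 CPM to 92.4, 108 and 86.6 CPM in the EV-proficient libraries and from 115, 119 and 122 CPM to 91.1, 113 and 102 CPM in the EV-deficient ones. It fell in the former (-0.38 ± 0.080 SE, edgeR adjusted p = 3.3e-04) and in the latter by 0.22 on the log2 scale, with no overlap in either. The call in the latter was lost without EV-deficient paclitaxel replicate 1 (-0.16) and with upper-quartile scaling (-0.04). Lamc3, a rare gamma chain, fell in both, from 1.197 ± 0.163 to 0.331 ± 0.177 and from 2.05 ± 0.424 to 0.427 ± 0.378 CPM, by 2.07 on the log2 scale on average.

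The EV labels were compared within each treatment. Under DMSO, 13 members differed between labels, 8 of them higher in the EV-deficient libraries and 5 lower there, where 23% of all tested genes passed (12.4% higher, 10.6% lower). Under paclitaxel 20 differed, 7 higher and 13 lower, against 37.8% of all genes (16% higher, 21.8% lower). The interaction was called for 22, of which 7 were positive and 15 negative, against 40.7% (16.9% positive, 23.8% negative). Without EV-proficient paclitaxel replicate 3 the last 2 counts were 18 and 20. The median log2 values of the members were 0.02, -0.15 and -0.28, beside 0.04, 0.00 and -0.04 over all genes. The members' shares were above the background in each of the 3 comparisons, and whether they differ from it was not tested.

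Over the 35 tested members, 11 (31.4%) had the same sign of the EV-label difference under both treatments. That share was 32.9% over all 18108 tested genes, near that of the members. There were 10 members called under both, among them Itga2, Itgav, Itga5, Itga7, Itgb2 and Lama3, and 10 of the 10 had opposite signs in the 2 treatments, which an exchange of the EV labels within 1 treatment would also give. That tally rests on the threshold. Itga3 was lower in the EV-deficient libraries under paclitaxel (-0.45) and stood at -0.16 ± 0.060 SE (edgeR adjusted p = 0.0517) under DMSO, a value called in 13 of 20 alternatives. Itgb4 was lower under DMSO (-0.55) and stood at -0.17 ± 0.068 SE (edgeR adjusted p = 0.0533) under paclitaxel, a value called in 6 of 20. Opposite signs were found for 2722 of the 2834 genes of the whole table that were called under both. In the EV-deficient controls Itgb2 was 10.5-fold higher than in the EV-proficient ones (log2 fold change 3.39 ± 0.16 SE, edgeR adjusted p = 6.3e-13), and after paclitaxel it was 6.14-fold lower (log2 fold change -2.62 ± 0.13 SE, edgeR adjusted p = 4.0e-12). Itgb7 was higher by 1.25 in the controls and stood at -0.97 after the drug. Itga2 was lower in the EV-deficient controls (-0.63 ± 0.075 SE, edgeR adjusted p = 1.9e-06) and higher after the drug (0.62 ± 0.075 SE, edgeR adjusted p = 1.4e-06). Itgb5 was higher by 0.91 in the EV-deficient controls and stood at -0.25 after the drug, the latter not called with upper-quartile scaling (-0.15). For Itga7 the control difference of -0.29 was lost in 6 of 12 fits with 1 library left out (range -0.33 to -0.25).

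**Figure D5:**
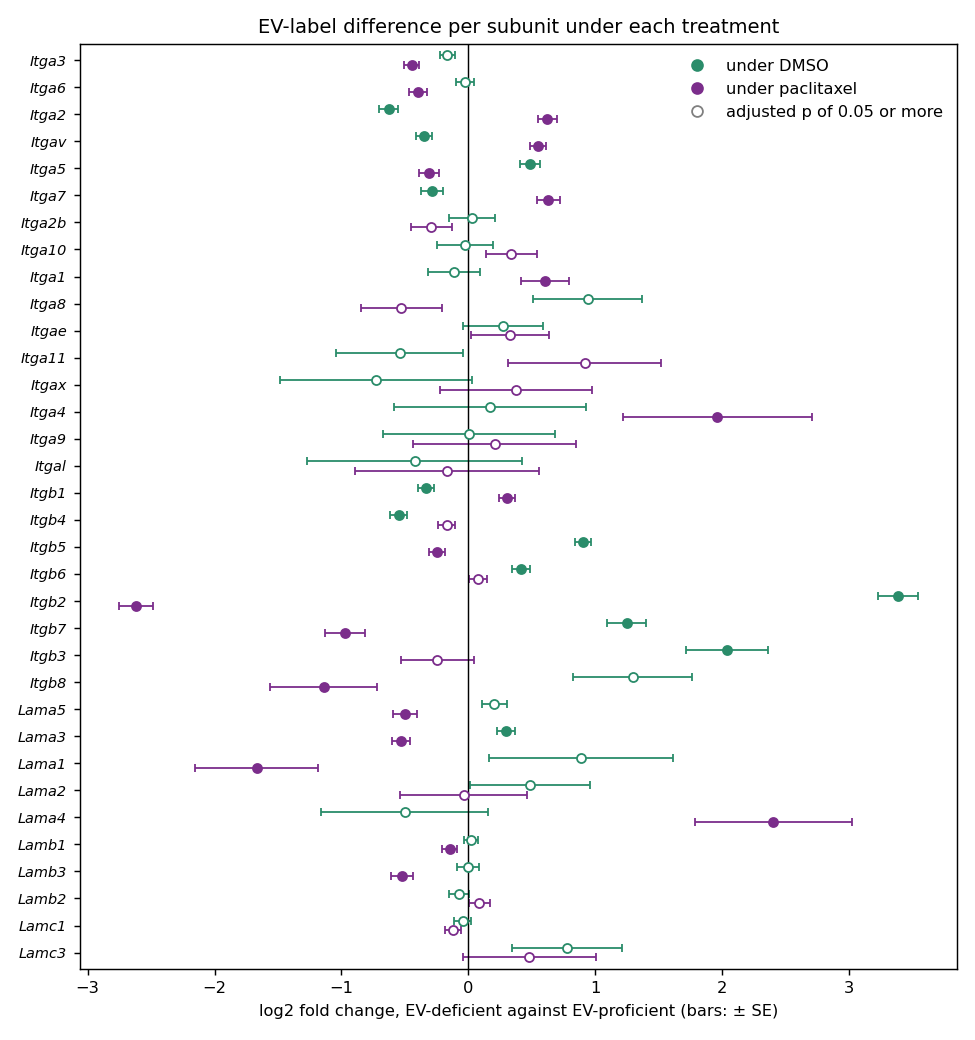
EV-label difference of tested integrin and laminin subunits. The horizontal axis is the log2 fold change of EV-deficient against EV-proficient libraries with bars of ± 1 SE, in green under DMSO and in purple under paclitaxel, and hollow points have an adjusted p of 0.05 or more. For Itgb2 the points lie at 3.39 and -2.62, on opposite sides of 0.

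The EV-label differences after paclitaxel are given by class, beside the 16% of all genes that were higher and the 21.8% that were lower. Among the 16 tested alpha integrins 5 were higher and 3 lower in the EV-deficient libraries, with Itga2, Itga7, Itga1 and Itgav from 0.55 to 0.63 and Itga4 at 1.97 on at most 40 counts, the last lost in 10 of 12 fits with 1 library left out (range 1.56 to 3.62, the highest without EV-proficient paclitaxel replicate 1). The Itga1 difference was lost without EV-proficient paclitaxel replicate 3 (0.45) or EV-deficient paclitaxel replicate 1 (0.50). Itga3 was lower (-0.45 ± 0.060 SE, edgeR adjusted p = 5.4e-06), as were Itga6 at -0.40 and Itga5 at -0.31. Among the 8 beta integrins Itgb1 alone was higher (0.31 ± 0.062 SE, edgeR adjusted p = 4.9e-04), and Itgb2, Itgb5, Itgb7 and Itgb8 were lower. Itgb8 was not called with upper-quartile scaling, with a fit of the compared groups alone, or in 4 of 12 fits with 1 library left out. Among the 11 laminins Lama4 was higher and 6 were lower, among them Lama3, Lama5 and Lamb3. Lama5 stood at -0.50, Lama3 at -0.53 and Lamb3 at -0.52, while Lamb1 (-0.15) was lost in 7 of 12 such fits (range -0.19 to -0.11) and in 7 of the 8 other alternatives, all but voom in limma. Under DMSO Lama3 was higher in the EV-deficient libraries (0.30).

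Levels were also summed over a class and taken per kb. The integrin alpha sum was 571 ± 18.8 CPM per kb in EV-proficient DMSO and 444 ± 16.1 in EV-proficient paclitaxel libraries, and 506 ± 5.90 and 381 ± 21.6 in the EV-deficient pair. The beta sum was 503 ± 18.2 and 399 ± 19.4 in the EV-proficient and 424 ± 4.34 and 439.9 ± 17.8 in the EV-deficient pair. The laminin alpha sum was 127 ± 8.77 and 164 ± 13.0 in the EV-proficient and 151 ± 1.87 and 115 ± 17.3 in the EV-deficient pair, and the laminin beta sum 135 ± 4.66 and 119.6 ± 8.52, and then 134 ± 0.749 and 101 ± 7.28. Every drug-treated library had a lower integrin alpha sum than the controls of its EV label. The laminin alpha sum of the drug-treated libraries lay above the controls in the EV-proficient pair and below them in the EV-deficient pair.

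Genes that work with these subunits were taken from lists of known partners. Of 33 integrin adaptors and focal adhesion proteins, 6 were higher and 20 lower under paclitaxel averaged over both EV labels (median log2 change -0.23, beside 0.07 over all genes), and with upper-quartile scaling 10 were higher and 15 lower. The counts of this and the following lists stand beside 37.1% higher and 31.3% lower over all genes for that average, and 16.9% positive and 23.8% negative for the interaction. Whether a list differs from these shares was not tested. Flna, the filamin that crosslinks actin and binds beta tails, went from 2586 ± 109 to 1264 ± 83.8 CPM and from 2379.98 ± 24.6 to 1113 ± 158 CPM (-1.06 ± 0.054 SE, edgeR adjusted p = 2.3e-13). Tensins, which bind beta integrin tails, went to both sides. Tns3 fell by 1.03 on the log2 scale, while Tns1 rose from 15.2 ± 1.70 to 49.1 ± 1.67 CPM and from 19.9 ± 1.14 to 50.1 ± 2.33 CPM (1.51 ± 0.059 SE, edgeR adjusted p = 4.4e-15), and Tns2 rose by 0.33 on average, with 0.65 in the EV-proficient libraries and no call in the EV-deficient ones. Tns4 had the list's largest interaction (-1.77 ± 0.12 SE, edgeR adjusted p = 1.5e-10), rising from 411 ± 21.6 to 815 ± 28.3 CPM in the EV-proficient and falling from 711 ± 30.6 to 414 ± 71.4 CPM in the EV-deficient libraries. Fermt1, the epithelial kindlin that activates beta 1, had an interaction of -1.13. For the interaction 3 of the 33 were positive and 15 negative, or 7 and 10 with upper-quartile scaling.

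Of the 4 other hemidesmosome genes, 3 were lower and none higher on average under the drug. Plec, the plectin that joins Itgb4 to keratin, went from 747 ± 52.3 to 294 ± 31.0 CPM in EV-proficient and from 564 ± 61.2 to 318 ± 54.5 CPM in EV-deficient libraries (-1.08 ± 0.071 SE, edgeR adjusted p = 1.4e-11). Cd151, the tetraspanin that travels with alpha 3 beta 1, fell by 0.39 on the log2 scale. Dst, the epithelial plakin, had an interaction of 0.83, and its average change of -0.29, with no call in the EV-deficient libraries (0.12), was not called with upper-quartile scaling (-0.17).

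Of 21 basement membrane partners of laminin, 20 were tested, and 12 were higher and 3 lower on average under paclitaxel, against 37.1% and 31.3% of all genes (median log2 change 0.71, beside 0.07 over all genes). The type IV collagen chains went to both sides. Col4a5 rose from 14.3 ± 0.0942 to 61.4 ± 10.5 CPM in EV-proficient and from 17.1 ± 0.760 to 62.9 ± 3.56 CPM in EV-deficient libraries (1.99 ± 0.070 SE, edgeR adjusted p = 1.2e-15), while Col4a1, far more abundant per kb, (-0.71 ± 0.048 SE, edgeR adjusted p = 2.6e-11), and Col4a2 (-0.74) fell. Sparc, a collagen-binding glycoprotein, was at 16.8 ± 2.502, 116 ± 5.62, 79.3 ± 3.86 and 49.3 ± 3.05 CPM in EV-proficient controls and drug-treated libraries and then EV-deficient controls and drug-treated libraries. The EV-proficient controls were the lowest group and their drug-treated counterparts the highest, with an interaction of -3.47 ± 0.12 SE (edgeR adjusted p = 3.2e-15). Hspg2, the heparan sulphate proteoglycan perlecan, had an interaction of -1.66.

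Of the 6 other laminin receptors, 3 were higher and 3 lower on average, or 3 and 1 with upper-quartile scaling. Bcam, a Lama5 receptor, rose by 0.81, from 23.2 ± 2.02 to 53.2 ± 5.20 CPM and from 31.8 ± 2.32 to 42.9 ± 3.57 CPM, with a smaller rise in the EV-deficient libraries (interaction -0.77). The syndecan Sdc2 rose by 0.50. Sdc1, the epithelial syndecan, fell in the EV-deficient libraries from 447 ± 6.24 to 207 ± 8.31 CPM, against 379.97 ± 13.3 and 377 ± 11.95 CPM in the EV-proficient pair, with an interaction of -1.10. Rpsa stood at -0.21 on average, and at -0.09 and not called with upper-quartile scaling.

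Of 28 other integrin ligands, 23 were tested, with 9 higher and 9 lower on average under the drug and 9 positive and 4 negative interactions, against 37.1%, 31.3%, 16.9% and 23.8% of all genes. Tnc, the tenascin bound by alpha v and alpha 9 integrins, rose from 28.7 ± 0.886 to 84.5 ± 6.90 CPM in the EV-proficient and fell from 240.1 ± 3.89 to 12.5 ± 3.53 CPM in the EV-deficient libraries, an interaction of -5.80 ± 0.17 SE (edgeR adjusted p = 2.1e-16). Spp1, the alpha v ligand osteopontin, rose in both, from 44.2 ± 4.76 to 210.5 ± 12.4 and from 54.2 ± 5.82 to 210.4 ± 33.5 CPM (2.104 ± 0.073 SE, edgeR adjusted p = 1.1e-15 on average). Vcam1, a ligand of alpha 4 integrins, rose in the EV-deficient libraries from 4.80 ± 0.0631 to 49.6 ± 9.35 CPM, against 8.24 ± 1.21 and 8.82 ± 1.35 CPM in the EV-proficient pair, with an interaction of 3.26 ± 0.20 SE (edgeR adjusted p = 2.7e-11). Jam2, a junctional adhesion molecule, fell from 35.5 ± 3.97 to 9.80 ± 2.25 and from 28.7 ± 4.38 to 10.6 ± 2.46 CPM.

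Of 15 genes for trafficking and shedding of integrins and laminins, 14 were tested, and 5 were higher and 5 lower on average, or 8 and 3 with upper-quartile scaling. The proteases Adam9 and Bmp1 rose by 0.45 and 0.44 on average, Adam9 with no call in the EV-proficient libraries (0.10), where Bmp1 is known to trim laminin chains. Rab25, a recycling GTPase that carries alpha 5 beta 1, and Snx17, a sorting nexin that recycles beta 1, fell by 0.40 and 0.38 on the log2 scale on average. For Rab25 the change was -0.80 in the EV-deficient libraries and 0.0078, not called, in the EV-proficient ones. Dab2, a clathrin adaptor for beta 1, was at 76.3 ± 2.64 and 106 ± 8.12 CPM in the EV-proficient and 135 ± 3.87 and 75.7 ± 1.67 CPM in the EV-deficient pair, an interaction of -1.30 ± 0.090 SE (edgeR adjusted p = 1.9e-10).

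Markers of other cells that such a culture could hold were also read. The 8 fibroblast markers summed to 1.68 to 2.58 CPM in the EV-proficient controls and 5.58 to 6.86 CPM after the drug, and to 2.84 to 3.596 CPM in the EV-deficient controls and 7.12 to 8.99 CPM after the drug. The sum was higher after the drug in both EV labels without overlap, as were several of the members at low levels. Pdgfra had the highest mean of the 8 in each group, at 1.22 and 4.25 CPM in the EV-proficient and 1.77 and 4.23 CPM in the EV-deficient pair. Of 6 tested fibroblast markers, 2 were called higher in the EV-proficient and 3 in the EV-deficient libraries, and 0 lower. Over all genes 31.1% and 32.4% were higher. Of the 8, 0 to 3 were at or under 3 counts in each group. The 8 endothelial markers summed to 2.68 to 2.84 and 3.42 to 4.29 CPM in the EV-proficient pair and to 2.13 to 2.96 and 3.82 to 5.09 CPM in the EV-deficient pair, also higher after the drug without overlap, and 2 of the 8 were at or under 3 counts in each group. Of the 6 platelet and megakaryocyte markers, Ppbp was at 188, 129, 244 and 118 CPM in EV-proficient controls and drug-treated libraries and then EV-deficient controls and drug-treated libraries, and 3 or 4 of the 6 were at or under 3 counts in each group. Ppbp was lower after the drug in both EV labels, where Itga2b was higher. The part of these markers in the member results was not tested.

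Sequences upstream of the start sites were read for the members with a single listed start, 20 of the 37 symbols, from RefSeq on GRCm38.p6. Shown are 4 of them, chosen after their values were seen, to set Itgb5, whose rise under paclitaxel was larger in the EV-proficient libraries, and Lama5, which rose there, beside Itga2 and Itgav, which rose in the EV-deficient ones. Each is the 250 bases before the start, on the gene's strand. Capitals mark the SP motif GGGCGG, searched on both strands. The Itgb5 sequence is chr16:33829415-33829664 on the plus strand, that of Lama5 chr2:180225860-180226109 on the minus strand, that of Itga2 chr13:114932101-114932350 on the minus strand and that of Itgav chr2:83724147-83724396 on the plus strand.
Itgb5: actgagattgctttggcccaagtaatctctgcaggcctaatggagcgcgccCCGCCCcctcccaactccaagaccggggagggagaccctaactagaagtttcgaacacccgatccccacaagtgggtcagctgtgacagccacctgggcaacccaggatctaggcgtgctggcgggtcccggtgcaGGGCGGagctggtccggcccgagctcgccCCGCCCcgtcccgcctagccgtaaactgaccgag
Lama5: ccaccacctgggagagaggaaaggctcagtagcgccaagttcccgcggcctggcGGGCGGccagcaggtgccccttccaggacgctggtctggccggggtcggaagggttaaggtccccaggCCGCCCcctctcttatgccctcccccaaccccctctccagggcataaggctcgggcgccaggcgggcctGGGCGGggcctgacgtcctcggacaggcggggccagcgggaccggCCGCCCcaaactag
Itga2: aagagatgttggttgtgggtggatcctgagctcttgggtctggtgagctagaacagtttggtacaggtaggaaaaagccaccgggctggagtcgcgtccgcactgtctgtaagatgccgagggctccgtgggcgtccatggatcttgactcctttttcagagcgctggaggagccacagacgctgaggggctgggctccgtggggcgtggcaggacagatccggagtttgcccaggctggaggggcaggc
Itgav: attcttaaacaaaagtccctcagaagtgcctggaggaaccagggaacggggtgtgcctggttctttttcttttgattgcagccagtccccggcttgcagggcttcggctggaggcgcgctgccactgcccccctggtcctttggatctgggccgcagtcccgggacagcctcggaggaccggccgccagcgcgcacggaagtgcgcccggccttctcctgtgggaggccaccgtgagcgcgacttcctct

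Itgb5 held 3 and Lama5 4 matches, and no match was found in the windows of Itga2 and Itgav. The windows of Itga1, Itga2b, Itga8, Itga10, Itgb7 and Itgb8, which rose in the EV-proficient libraries, held no match either, while that of Itga5, which also rose there, held 2. Lamb1 held 2 matches, and Itgb1, which fell in the EV-proficient libraries, held 1, as did Itga4 and Itgam. The motif was in 7 of the 20 member windows and in 32.7% of 32851 upstream windows of the same length. Of the other motifs searched on both strands, AP-1 (TGANTCA) was in 1, TEAD (GGAATG) in 2, and CRE (TGACGTCA), ETS (CCGGAAG) and the E-box (CACGTG) in 0 of the 20, against 6.75%, 12.6%, 1.55%, 6.91% and 6.02% of all windows. A match is a description of the letters and shows no binding.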

How the data were processed

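Poly(A) RNA of 12 samples was sequenced with a stranded kit, per the labels' protocols. The submitters' processing notes name STAR 2.5.0a and GRCm38. The counting program, the annotation release and the use of strand are not given in the sources used here. The authors deposited whole read counts per gene, not normalized, in 1 table of 55423 rows. Of these, 2 added rows for gfp and dngfr sequences were left out, and 0 columns belonged to other samples. Columns were matched to samples by the sample descriptions, and groups were taken from titles and treatment labels.

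Counts went into edgeR 4.0.16 in R 4.3.3. The filterByExpr function (minimum count 10) kept 18108 of the 35104 genes that had a count. Library sizes were scaled by TMM (factors 0.890 to 1.15). A quasi-likelihood model with a mean for each group was fitted to all 12 libraries together (common dispersion 0.00956), with 6 contrasts. Benjamini-Hochberg adjustment ran over all tested genes, at a threshold of 0.05. The standard error is the absolute log2 change over the root of its F value. Exon lengths, positions and overlaps came from GENCODE M21 on GRCm38. A floor of 3 counts stood for 0.0477 to 0.129 CPM, and floors cover counting error only. Components were computed on log2 CPM, prior count 2.

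The members and the 11 gene lists were chosen with earlier results of these data known. Members past the threshold with a group mean of at least 10 CPM are given by library and other members by group mean or range. List genes are named as up to 2 highest and 2 lowest in the average paclitaxel effect and up to 2 by size of interaction, among called genes of at least 5 CPM on average. Libraries of a group were compared first: the chi-square per degree of freedom over genes was 4.49 to 31.3 for 12 pairs, above sampling noise in each. The test was first run on simulated counts with known changes. Some single values are not reported here, though counts over members and lists include every gene. Each of the following was changed alone: scaling (median of ratios, or upper quartile), the filter (none, or 1 CPM in 3 libraries), the tool (DESeq2 1.42.0, or voom in limma 3.58.1), a block for the replicate number, a fit of the compared groups alone, and removal of each library.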

Additional observations from a re-analysis of the deposited data

Results flagged for a closer look

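The paclitaxel effect differed between the EV labels for the members and named partner genes given here by the edgeR interaction test (adjusted p under 0.05), and each value below is the log2 effect in EV-deficient minus that in EV-proficient libraries. Over all tested genes 40.7% passed that test. The members and partners were named with values of these data known, so the set is a description. All of these values rest on the EV labels as given, which were not checked against a targeted gene, and an exchange of the labels within 1 treatment would change them.

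Among integrin alpha chains the effect was more positive in the EV-deficient libraries for Itga2 (1.25), Itga7 (0.92), Itgav (0.90) and Itga1 (0.72), the last lost in 7 of 12 fits with 1 library left out. It was more negative for Itga8 (-1.47, lost in 8 of 12), Itga5 (-0.80), Itga6 (-0.37) and Itga3 (-0.28). Among beta chains it was more negative for Itgb2 (-6.01), Itgb8 (-2.44), Itgb3 (-2.28), Itgb7 (-2.22), Itgb5 (-1.15) and Itgb6 (-0.34), and more positive for Itgb1 (0.64) and Itgb4 (0.38). With upper-quartile scaling Itga8, Itga6, Itga3 and Itgb6 did not pass, and neither Itga8 nor Itga1 passed with voom in limma or Itga1 without the low-count filter.

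Among laminins it was more positive for Lama4 (2.91) and more negative for Lama1 (-2.55, lost in 6 of 12 fits with 1 library left out, with a range of -4.41 without EV-proficient DMSO replicate 1 to -1.97 without EV-proficient DMSO replicate 2), Lama3 (-0.82), Lama5 (-0.70) and Lamb3 (-0.52).

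Among the partners the matrix genes Tnc (-5.80) and Sparc (-3.47) had the most negative values and the adhesion molecule Vcam1 (3.26) the most positive. Other partners with a more positive effect were Dst (0.83), Adam9 (0.70), Col4a1 (0.63), Plec (0.51) and Bmp1 (0.23). Those with a more negative effect were Tns4 (-1.77), Hspg2 (-1.66), Dab2 (-1.30), Fermt1 (-1.13), Sdc1 (-1.10), Rab25 (-0.81), Bcam (-0.77), Tns2 (-0.65), Rpsa (-0.60), Tns1 (-0.36) and Snx17 (-0.32). Tns1 and Snx17 did not pass with upper-quartile scaling, nor Bmp1 without the low-count filter.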

How the results depend on the processing

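The number of members called stayed within 1.5 times that of the main analysis in every alternative. With 1 library left out it was 20 to 26 for paclitaxel in the EV-proficient and 23 to 25 in the EV-deficient libraries, 25 to 27 for their average, 12 to 15 for the EV labels under DMSO, 17 to 21 under paclitaxel and 18 to 22 for the interaction. Over the other alternatives it was 21 to 25, 22 to 25, 23 to 26, 14 to 17, 17 to 21 and 18 to 22. Of 4076 single values of the 35 tested members, 3880 kept direction and side of the threshold, 121 fell short of it, 74 newly passed it and 1 reversed. That was Itga6 under paclitaxel in the EV-deficient libraries, 0.014 with upper-quartile scaling against -0.17, where that scaling raised the median of all genes by 0.18. Among the losses not named beside the results, paclitaxel calls were lost without the low-count filter for Itga2 and Lama3 in the EV-proficient and Lamc1 in the EV-deficient libraries, and with a filter of 1 CPM in 3 libraries for Lama3 in the former and Lamb2 in the latter. EV-label calls were lost for Itga7 under DMSO without the low-count filter, and for Itga4 under paclitaxel with a fit of the compared groups alone. Same-numbered libraries did not deviate together (correlations -0.081 to 0.097 over 18 pairs, 5 of 12 libraries closest to their own number), so the numbers were not treated as pairs. With the replicate number as a block, 24, 24, 25, 15, 19 and 22 members were called, without Lamc1 under paclitaxel in the EV-deficient libraries or Itga4 and Lamb1 between the EV labels under paclitaxel, and with Lamb3 under paclitaxel in the EV-proficient libraries and Itga3 and Itgb8 under DMSO and Itgb4 under paclitaxel between the EV labels. Members at a few counts per library are limited by depth.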
